A study of Arabidopsis thaliana with 12 samples.

Results

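Endoglucanases of glycosyl hydrolase family 9 (GH9) cut the glucan chains of plant cell walls. Class A of the family is anchored in the membrane and includes KORRIGAN, which is needed for cellulose synthesis. Class C carries a carbohydrate-binding module. Class B, to which the genes described here belong, has neither and is in general secreted to the wall, and members of the family are known for roles where cells expand, separate or remodel their walls. A role of its own is not stated here for any of the 4 genes below.

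The 4 GH9B genes were chosen as the features that the annotation of the array platform lists with exactly 1 gene, that gene being GH9B8 (AT2G32990), GH9B11 (AT2G44560), GH9B12 (AT2G44570) or GH9B16 (AT4G38990). They are features 2035, 1490, 1502 and 3148 of the array, 4 of 3439 features in all and of 692 listed with 1 gene. Another 7 features carry GH9 genes but are listed with several genes. In the gene order of the RefSeq table (assembly TAIR10.1), GH9B9, GH9B10, GH9B11 and GH9B12 are neighbours on chromosome 2, and GH9B16, GH9B17 and GH9B18 are neighbours on chromosome 4. GH9B8 also lies on chromosome 2, outside that run.

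Wild-type Arabidopsis thaliana of the Landsberg ecotype was compared after 48 hours in red light of 200 µE and after 48 hours in white light of 20 µE, with 6 single-channel arrays for each light. Colour and level of light changed together and cannot be told apart. The tissue, the age of the plants and the light before those 48 hours are not stated in the labels used here. Arrays 1 and 2, 3 and 4, and 5 and 6 of a light were near-duplicates (rank correlation 0.91 to 0.989, while arrays of different pairs within a light reached 0.641 to 0.821), so each was averaged to 1 sample, called pair 1, 2 or 3, which gives 3 samples per light.

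The deposited intensities, for which the number of arrays limits the precision, ranged from 0 to 100 and were not on a common scale. Their median was 0.417 to 0.47 on red arrays 1 to 4, 0.233 and 0.237 on red arrays 5 and 6, and 0.236 to 0.289 on the white arrays. Values below are therefore quantile-normalized intensities unless named otherwise, and differences are red minus white on the scale of log2(intensity + 0.054), which understates the change of dim features. Of 16 marker genes fixed for tissue or tissue state, only the 5 of photosynthetic tissue were on features of their own, and these were above 0 on all 12 arrays. Markers of root, senescence and secondary wall could not be read.

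The differences of the 4 genes did not share a sign. GH9B12 had its lower intensities in red light, GH9B16 its higher ones, and GH9B11 and GH9B8 overlapped between the lights. In the limma fit over all 3438 gene or feature rows, 0 of the 4 passed an adjusted p of 0.05, against 4 rows (0.116%) of all. At an unadjusted p under 0.05 there was 1 of the 4, GH9B16, against 475 of all 3438 rows. With the pair number as a block there was again 1 of the 4, but it was GH9B11 with 0.0467, while GH9B16 had 0.098. In that fit 645 of all 3438 rows were under 0.05. The median difference of the 4 was -0.74, with 1 positive and 3 negative, and that of all rows was -0.01. The fit of 12 separate arrays, which counts near-duplicates as independent, called GH9B12 and GH9B16, 2 of the 4, against 16.4% of all rows. With the array number as a block it called GH9B11 and GH9B12, against 24.0% of all rows.

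GH9B12 had a normalized intensity of 0.245, 0.329 and 0.183 in red pairs 1, 2 and 3, and of 2.33, 0.856 and 0.373 in white pairs 1, 2 and 3. All 3 red samples were below all 3 white samples, but the lowest white and the highest red sample lay close together. The mean was 0.252 ± 0.0734 under red and 1.19 ± 1.02 under white light (n = 3 pair means each, ± SD). The log2 difference was -1.70 ± 0.69 (SE), a 3.24-fold lower value in red light, with a 95% interval from -3.49 to 0.10 and a limma adjusted p = 0.384. In bulk tissue, a lower value from fewer cells of a type cannot be told apart from less RNA per cell.

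After quantile normalization, the spread of GH9B12 lay mainly in the white samples. Its white pair means had an SD of 1.24 on the log2 scale, against 0.35 for the red ones. The 2 arrays of a pair differed by at most 0.18 on that scale, so the white samples differed from each other far more than repeated arrays did. By same-numbered pair the difference was -3.00, -1.25 and -0.85, and without white pair 1 the fitted difference was -1.05. The contrast in spread between the lights depended on the scaling. On the deposited scale the red samples were spread as well. GH9B12 there had 0.328, 0.475 and 0.107 in red pairs 1, 2 and 3, and 1.23, 0.739 and 0.323 in white pairs 1, 2 and 3.

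GH9B11, the neighbour of GH9B12, had 0.418, 0.658 and 0.204 in red pairs 1, 2 and 3, and 1.19, 0.886 and 0.406 in white pairs 1, 2 and 3. The lights overlapped, since red pairs 1 and 2 exceeded white pair 3, although each red pair was below the white pair of its number. The means were 0.427 ± 0.228 and 0.829 ± 0.397 (SD, n = 3 pair means each). The log2 difference of GH9B11 was -0.88 ± 0.56 (SE), with a 95% interval from -2.34 to 0.58 and a limma adjusted p = 0.583. The 3 pair differences were -1.40, -0.40 and -0.84, and pair 3 gave the lowest value in both lights. The fitted difference was -0.49 without red pair 3 and -0.57 without white pair 1. On the deposited scale it was -0.38, where the median of all rows shifted to 0.196.

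GH9B16 showed the opposite order to GH9B12. It had 0.448, 0.436 and 0.215 in red pairs 1, 2 and 3, and 0.134 and 0.141 in white pairs 2 and 3. In white pair 1 it was listed at 0 on both arrays, which says nothing on whether the gene was expressed there. All 3 red samples were above all 3 white samples. The log2 difference was 1.70 ± 0.62 (SE), with a 95% interval from 0.08 to 3.32 and a limma adjusted p = 0.347.

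The pair differences of GH9B16 were 3.21, 1.41 and 0.46, so the difference was largest in pair 1, as it was in size for GH9B12. The value for pair 1 rests on the listed 0 and on the pseudocount. With the pseudocount multiplied by 4 the fitted difference of GH9B16 was 0.93, and without white pair 1 it was 1.09. White pair 1 thus held both the highest GH9B12 and the lowest GH9B16 value of the 6 samples. Its rank correlation over all rows was 0.661 to 0.815 with the other white samples, and 0.668 to 0.831 was the range among the red ones. With the red samples it reached 0.581 to 0.676, where white pair 2 had 0.608 to 0.778 and white pair 3 had 0.674 to 0.772.

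GH9B8 was the dimmest of the 4 features, at percentile 13.1 of mean brightness over all rows. It was listed at 0 on the 4 arrays of red pairs 1 and 3 and had 0.108 in red pair 2. In white pairs 1, 2 and 3 it had 0.182, 0.0338 and 0.0445, with 1 of the 6 white arrays at 0. The lights overlapped, as red pair 2 exceeded white pairs 2 and 3. The log2 difference of -0.61 ± 0.64 (SE, limma adjusted p = 0.755) had a 95% interval from -2.29 to 1.07, and the pair differences of -2.05, 0.93 and -0.70 went both ways. Leaving out 1 pair at a time gave fitted differences from -1.13 (without red pair 2) to -0.15 (without white pair 1). The 2 arrays of a pair differed by up to 1.41 for GH9B8, which exceeds its fitted difference in size.

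**Figure D1:**
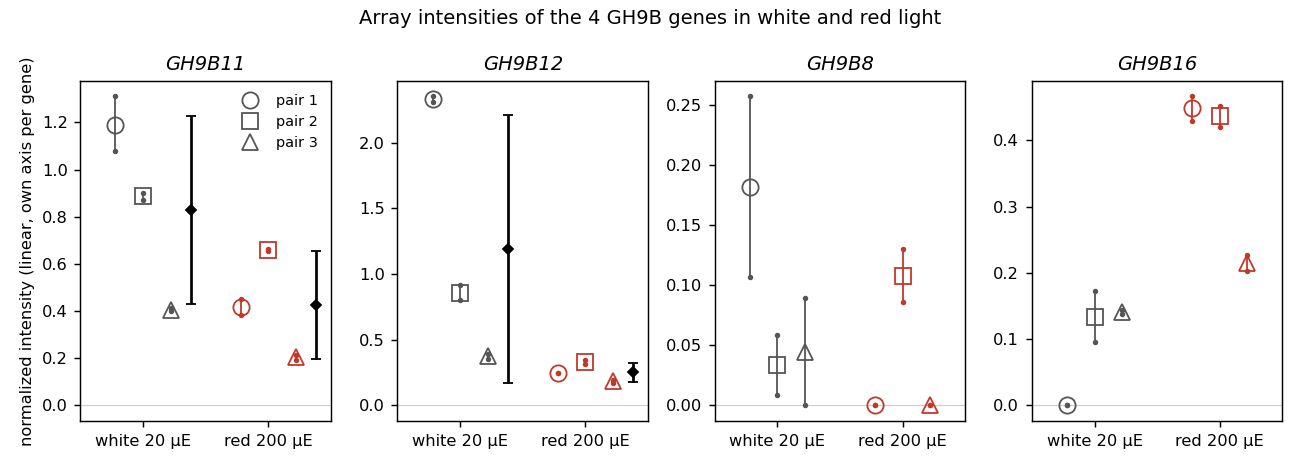
Normalized intensity (linear, each gene on its own axis) of GH9B11, GH9B12, GH9B8 and GH9B16 in white light of 20 µE and red light of 200 µE. Small dots are single arrays, a line joins the 2 arrays of a pair, open symbols are pair means, and black diamonds with bars are the mean ± SD of 3 pair means, drawn only for the genes with no array at 0. The red samples lie below the white ones for GH9B12 and above them for GH9B16, and the lights overlap for GH9B11 and GH9B8.

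**Figure D2:**
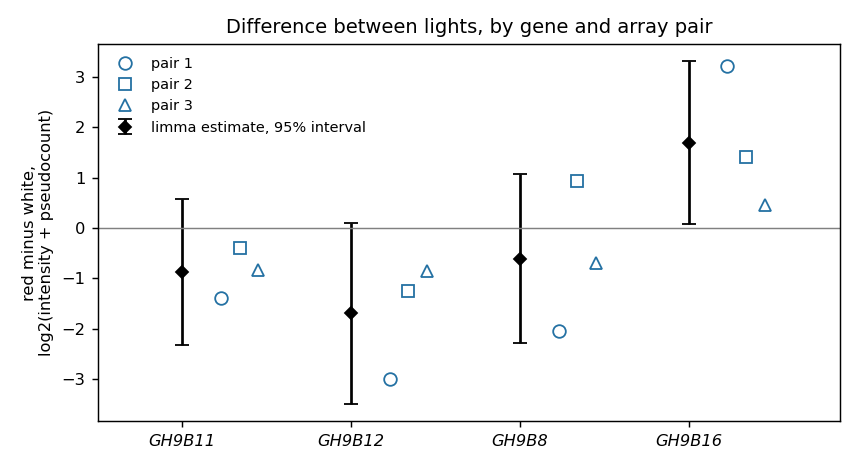
Red minus white differences on the log2(intensity + 0.054) scale, with the limma estimate and its 95% interval (black) and the difference of each same-numbered pair (open symbols). The interval of GH9B16 lies above 0, from 0.08 to 3.32, before adjustment over all rows and without the pair number as a block, and the other 3 intervals include 0.

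The separation of the lights was read against the whole array. The pair means of red and white did not overlap for 17.5% of all rows, 8.41% with red higher and 9.08% with red lower. Among the 4 genes, GH9B16 was in the first set and GH9B12 in the other.

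The separation depended on how the arrays were scaled. Reading it under other scalings was added after the data were examined. On the deposited scale, where 17.9% of all rows did not overlap, none of the 4 genes separated the lights. GH9B12 then had 0.475 in red pair 2 and 0.323 in white pair 3, and GH9B16 had 0.136 in red pair 3 and 0.141 in white pair 2. With arrays scaled to the same median, where 17.7% of all rows did not overlap, GH9B12 and GH9B16 separated again. GH9B12 then had at most 0.329 in red and at least 0.377 in white light, and GH9B16 had at least 0.185 in red and at most 0.155 in white light. Red arrays 5 and 6 had about the median of the white arrays and the other red arrays a higher one.

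**Figure D3:**
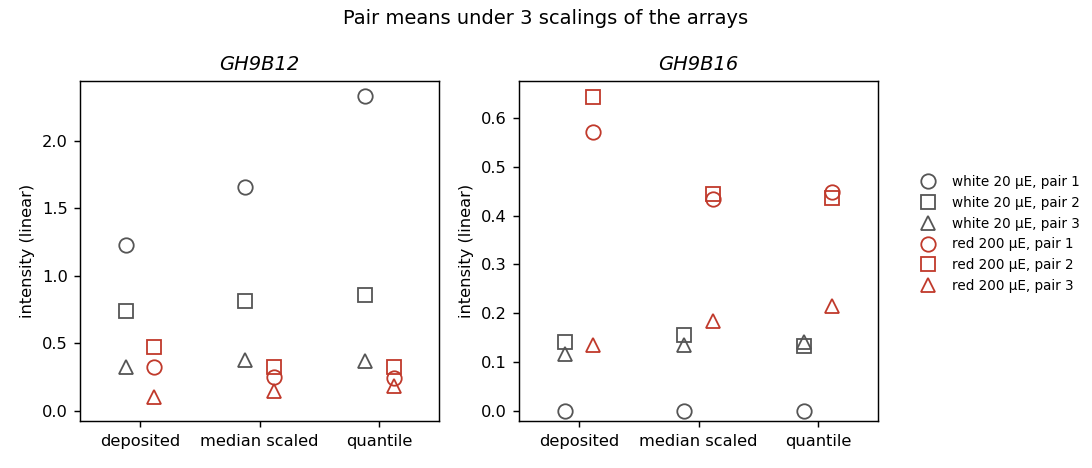
Linear intensity of the pair means of GH9B12 and GH9B16 as deposited, with arrays scaled to the same median, and after quantile normalization. On the deposited scale red pair 2 exceeds white pair 3 for GH9B12, and red pair 3 lies just under white pair 2 for GH9B16, while under the other scalings the lights are apart.

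Whether 2 genes moved unequally was tested on the log2 ratio of their features within each sample, red against white, for the 6 possible pairs of genes. GH9B12 over GH9B16 had a log2 ratio of -0.43 ± 0.29 under red and 2.97 ± 2.24 under white light (n = 3 pair means each, ± SD). The difference of -3.40 was negative in all 3 pairs, at -6.21, -2.66 and -1.31. The two-sided exact permutation test gave p = 0.1, the lowest value open to 3 samples against 3, and 0.15 after Benjamini-Hochberg adjustment over the 6 comparisons. The first of the pair values rests on the listed 0 of GH9B16. All red samples were below the white ones for GH9B12 and above them for GH9B16. The separation of their ratio, the negative sign in all 3 pairs and the p of 0.1 in this test followed from that and add nothing to it.

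GH9B11 against GH9B16 and GH9B8 against GH9B16 differed in the same direction, by -2.58 and -2.31. The neighbours GH9B11 and GH9B12 differed from each other by 0.82, with pair values of 1.60, 0.85 and 0.01. Each of these 3 ratios also separated the lights, with the same exact permutation p of 0.1 and adjusted value of 0.15. GH9B8 against GH9B12 and against GH9B11 overlapped between lights, with differences of 1.09 and 0.27 (exact permutation p = 0.2 and p = 0.5, adjusted 0.24 and 0.5). With 3 samples per light no ratio could pass 0.05 in this permutation test. In all, 4 of the 6 ratios separated the lights, where 18.2% of the ratios of 2 single-gene features did so. The 6 ratios share their 4 genes, and 3 of the 4 that separated involve GH9B16. That of GH9B12 to GH9B16 had to separate, given the values of each gene. The count of 4 is therefore not a result beyond those of the single genes, and the share over all ratios is no test of it. The ratio of GH9B8 to GH9B16 holds a listed 0 in 3 of the 6 samples (red pairs 1 and 3 for GH9B8, white pair 1 for GH9B16), so its size depends on the pseudocount. The ratio of GH9B11 to GH9B16 holds the listed 0 of GH9B16 in white pair 1, so its size depends on the pseudocount too. Its pair values were -4.61, -1.81 and -1.3.

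Over the 6 samples, GH9B12 had a Pearson correlation of 0.888 with GH9B11 and 0.746 with GH9B8 on the log2 scale, and -0.874 with GH9B16. GH9B11 correlated at 0.792 with GH9B8 and at -0.56 with GH9B16, and GH9B8 at -0.562 with GH9B16. These are descriptions of 6 points that share the arrays and the light. By sign, GH9B8, GH9B11 and GH9B12 lay on one side and GH9B16 on the other. GH9B8 was at 0 in red pairs 1 and 3 and GH9B16 in white pair 1, so their correlations depend on the pseudocount. The place of GH9B8 is weak, since its pair differences of -2.05, 0.93 and -0.70 went both ways.

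Of the 7 features listed with several genes, features 1466, 1478 and 3160 are listed with runs of neighbouring genes. Only features 1466 and 3160 include any of the 4 genes described here. Feature 1466, listed with all of GH9B9 to GH9B12, had 0.238, 0.306 and 0.0296 in red pairs 1, 2 and 3, and 1.11, 0.814 and 0.26 in white pairs 1, 2 and 3. Its samples stood in the same order as those of GH9B11, except that red pair 1 and white pair 3 changed places, with a Pearson correlation of 0.974 with GH9B11 and 0.885 with GH9B12 over the 6 samples. Its log2 difference was -1.76 ± 0.83 (SE, limma adjusted p = 0.452), with pair values of -2.00, -1.27 and -2.00. Feature 1478, listed with GH9B9 and GH9B10 only, differed by -0.16 ± 0.76 (SE), and its pair values of -0.86, 0.44 and -0.07 went both ways. The features that include GH9B11 or GH9B12 thus had negative differences in each pair. Features of such close relatives may share signal, which was not tested.

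For GH9B16 the feature listed with its neighbours did not show the same order. Feature 3160, listed with GH9B16, GH9B17 and GH9B18, had 0.259, 0.383 and 0.104 in red pairs 1, 2 and 3, and 0.115, 0.649 and 0.595 in white pairs 1, 2 and 3. The lights overlapped, and the difference of -0.60 ± 0.74 (SE, limma adjusted p = 0.795) had the sign opposite to that of GH9B16. White pair 1 was low in both features, and red was above white in pair 1 only for feature 3160 (pair values 0.91, -0.68 and -2.04). The correlation of feature 3160 with GH9B16 over the 6 samples was 0.289. Feature 2890, listed with GH9B17, GH9B18 and AT3G42155, differed by 0.44 ± 0.88 (SE) and was listed at 0 on 2 arrays of each light.

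Features 2019 and 2884 are listed with the same 2 genes, GH9B14 and GH9B15, and they gave different values. Feature 2019 had 0.282, 0.768 and 0.821 in red pairs 1, 2 and 3, and 0.147, 0.462 and 0.333 in white pairs 1, 2 and 3, a difference of 0.88 ± 0.55 (SE, limma adjusted p = 0.583) that was positive in each pair. Feature 2884 had 1.27 in red pair 3, was listed at 0 on the other 4 red arrays and on 4 of 6 white arrays, and had 0.0163 in white pair 1. Features listed with the same genes can therefore differ from one another on this array. Feature 1540, listed with the class C genes GH9C2 and GH9C3, had 0.628 ± 0.0796 under red and 0.65 ± 0.253 under white light (n = 3 pair means each, ± SD), a difference of 0.02 ± 0.31 (SE) with a 95% interval from -0.79 to 0.83.

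Over all 11 GH9 features, 5 differences were positive and 6 negative, with a median of -0.16, and 0 passed the adjusted threshold in limma. The only one with an unadjusted p under 0.05 was GH9B16.

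**Figure D4:**
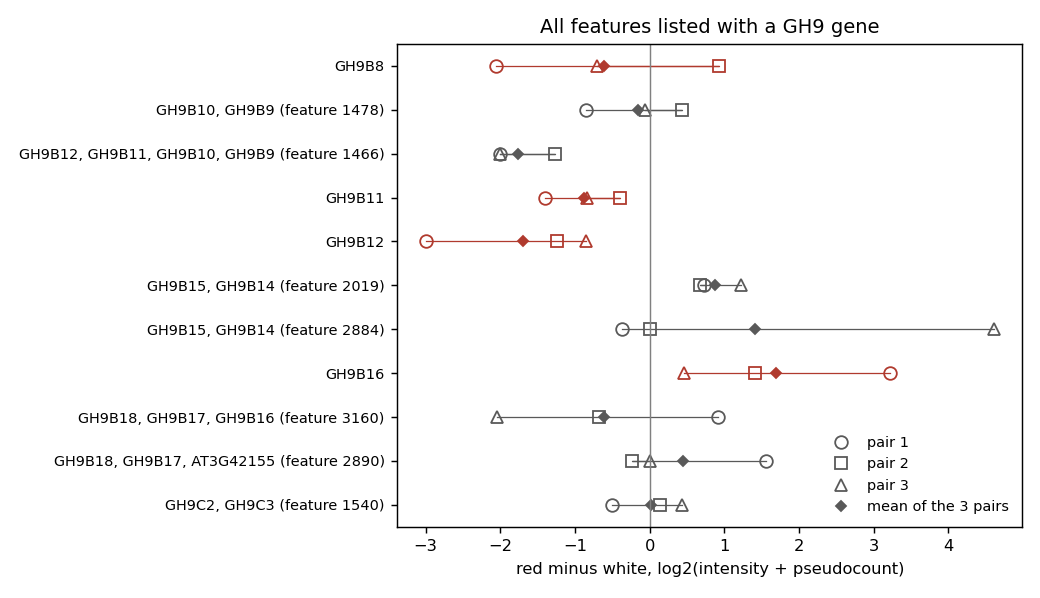
Red minus white differences on the log2(intensity + 0.054) scale for the 11 features listed with a GH9 gene, by same-numbered pair (open symbols) and as the mean of the 3 pairs (diamonds). The 4 single-gene features are in red. GH9B11, GH9B12 and feature 1466 are negative in every pair, GH9B16 and feature 2019 positive in every pair, and the other features have pairs on both sides of 0 or at 0.

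Other genes of cell wall metabolism were sparse on the array. Lists for cellulose synthesis, xyloglucan, expansins, pectin and lignin had no feature with 1 gene, and a list by description had 1 besides the GH9B genes. This was CSLA01, a cellulose synthase-like gene, with 0.233 ± 0.0406 under red and 0.172 ± 0.0801 under white light (n = 3 pair means each, ± SD) and a difference of 0.40 ± 0.32 (SE, limma adjusted p = 0.671). With the features listed with several genes there were 12 wall features outside the GH9 family, 8 with a positive and 4 with a negative difference and a median of 0.33. None passed the adjusted threshold in limma, and 3 had an unadjusted p under 0.05, against 475 of 3438 over all rows. The lights did not overlap for 5 of the 12, 2 with red higher and 3 with red lower, against the 17.5% of all rows given above. A feature was counted if at least 1 of its genes was in a list. For features 380, 1094, 1161, 1431 and 4208 no list held all of their genes, so they may measure other genes. Feature 1161 was among the 3 and among the 5.

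The smallest p values among these 12 belonged to feature 1732 and feature 2938. Feature 1732 is listed with TBL23 and TBL24, of a family that adds acetyl groups to wall polysaccharides. It had 1.34, 2.31 and 1.27 in red and 0.397, 0.569 and 0.367 in white pairs 1, 2 and 3, a difference of 1.75 ± 0.30 (SE, limma adjusted p = 0.145). Feature 2938, listed with the expansin-like genes EXLA2 and EXLB1, had 0.22, 0.334 and 0.238 in red and 0.338, 0.574 and 0.485 in white pairs 1, 2 and 3, a difference of -0.70 ± 0.24 (SE, limma adjusted p = 0.318). In both, the lights did not overlap, and the pair differences were closer to each other than those of GH9B12 or GH9B16. The other 3 whose lights did not overlap were feature 1161, feature 1460 and feature 2650. Feature 1161, listed with CSLC12, AT4G07940, AT4G07950 and AT4G07990, differed by 0.60 ± 0.22 (SE, limma adjusted p = 0.334). Feature 1460, listed with the beta-glucosidase genes BGLU45 and BGLU46, differed by -1.15 ± 0.48 (SE, limma adjusted p = 0.399), and feature 2650, listed with the pectin methylesterase genes PME61 and ATPMEPCRD, by -1.86 ± 0.95 (SE, limma adjusted p = 0.483). Feature 2650 was at 0 in red pair 3, so the size of its difference depends on the pseudocount. Its pair values were -0.96, -1.06 and -3.56. For xyloglucan, the next smallest p after feature 1161 belonged to feature 1431, listed with CSLC12, AT4G07940 and AT4G07950, whose lights overlapped. It differed by 1.44 ± 0.56 (SE, limma adjusted p = 0.371), with pair values of 1.69, 1.11 and 1.51. For lignin, the smallest p belonged to feature 1094, listed with 4CL8 and AT1G20500, with a difference of 0.30 ± 0.43 (SE, limma adjusted p = 0.843). Feature 4208, listed with 4CL8, OPCL1, AT1G20490 and AT1G20500, differed by 0.19 ± 0.63 (SE, limma adjusted p = 0.98).

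The genes most like each member were sought among 593 single-gene features at 0 on no more than 6 arrays, by Pearson correlation over the 6 samples. The highest of so many correlations over 6 points is high by choice, and it is a description. For GH9B12 the nearest were AT2G35490 (0.98), AT2G05120 (0.979) and AT1G77730 (0.968), with log2 differences of -0.84, -0.60 and -0.66, so all were smaller in size than the -1.70 of GH9B12. For GH9B11 they were RALFL32 (0.962), AT1G01730 (0.959) and AT1G27660 (0.95), with differences of -0.77, -0.63 and -0.86.

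For GH9B16 the nearest were AT1G32520 (0.95), AT5G53930 (0.944) and AT3G04650 (0.939), with log2 differences of 0.99, 1.70 and 0.55. For GH9B8 they were AT2G28790 (0.973), AT2G21960 (0.97) and AT2G03200 (0.896), with differences of -0.72, -0.56 and -0.93. The limma adjusted p of these 12 genes ranged from 0.308 to 0.72. The number of genes with a correlation above 0.9 was 22 for GH9B11, 12 for GH9B12, 8 for GH9B16 and 2 for GH9B8.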

How the data were processed

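The deposited table holds 1 linear intensity per feature and array. The authors' steps behind these intensity values were not given in the sources used here. Features were named from GEO's platform annotation, which can be old, with symbols updated through the Entrez identifier in the RefSeq table (690 of 692 single-gene features matched). Intensities were quantile-normalized, since the array medians differed 2.02-fold (limit 1.25), then transformed as log2(intensity + 0.054), the pseudocount being percentile 5 of the positive values. Features of 1 gene were averaged, and arrays were averaged in pairs. Differences were fitted over all 3438 rows with limma 3.58.1 in R 4.3.3 (lmFit, eBayes, 4 residual degrees of freedom), with Benjamini-Hochberg adjustment over all rows. The script was tested on simulated data. Ratios between genes were tested by exact permutation (scipy 1.17.1).

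Pair means of equal number in both lights deviated together from their light means (correlation 0.125, 0.466 and 0.376 for pairs 1, 2 and 3, each above 0.1). Samples of unequal number were not compared in this way, so a pairing was not established, and the labels do not give one. Red pair 1 reached a rank correlation of 0.75 with a white sample, while white pair 1 reached at most 0.676 with a red one. Differences by same-numbered pair are thus descriptions. The main fit and the permutation tests did not use the pair number. The labels do not say which plants or extracts lie behind an array, so p-values measure the spread between these samples, which may be technical.

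By rule, the named genes are the 4 members, the wall genes with the smallest p in each list (only CSLA01 was on a feature of its own) and the 3 genes most like each member. Wall features with several genes are named where they had the smallest p of a list or did not overlap between lights, which was chosen after their values were seen. Members and lists were chosen with earlier results of these data known, and the use of features with several genes was added after the data were examined. Alternatives covered the pairing, the averaging, the scaling, the pseudocount, dim features, the prior, array weights and leaving out arrays or pairs.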

Additional observations from a re-analysis of the deposited data

How the results depend on the processing

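All 4 genes kept the sign of their difference under each alternative run. Changing the block, the averaging, the prior or the rows tested left each difference as it was, so its sign was fixed there. The normalized samples of GH9B12 and GH9B16 did not overlap between lights, so leaving out a pair could not change their sign either. The range was -2.29 to -1.05 for GH9B12, -1.29 to -0.38 for GH9B11, 0.93 to 2.44 for GH9B16 and -1.21 to -0.15 for GH9B8, which was not tested without the dimmest 25% of features. The count of genes past an adjusted p of 0.05 was 0, except that 2 passed when 12 arrays entered as separate samples and 2 when the replicate block was added to that fit. In these fits near-duplicates count as independent, so their p-values are too small. The first called GH9B12 at -1.70 (adjusted p = 0.0278) and GH9B16 at 1.70 (adjusted p = 0.0189), and the fit with the replicate block called GH9B12 at -1.70 (adjusted p = 0.0283) and GH9B11 at -0.88 (adjusted p = 0.0211). With the pair number as a replicate block on pair means, the adjusted p was 0.26 for GH9B11, 0.293 for GH9B12, 0.347 for GH9B16 and 0.717 for GH9B8, and it changed no call at the adjusted threshold. Leaving out 1 pair, and so 1 sample, gave -2.29 to -1.05 for GH9B12, 1.09 to 2.02 for GH9B16, -1.29 to -0.49 for GH9B11 and -1.13 to -0.15 for GH9B8. Leaving out 1 array keeps its near-duplicate and says little on stability (-1.73 to -1.67 for GH9B12, 1.60 to 1.80 for GH9B16). The number of gene ratios that separated the lights was 4, also on the deposited scale and with the pseudocount multiplied by 4, and 3 with it divided by 4. The scaling of an array largely cancels in a ratio, so the count on the deposited scale says little on stability.

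The count of 4 among all rows was 27 on the deposited scale, 105 with near-duplicates as a random block, 104 with array weights, 564 with 12 separate arrays and 826 with the replicate block there. It was between 0 and 5 in the others. The table gives no local background, and the values of GH9B8, and of GH9B16 in white light, lie near the floor of the table.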
